A study of Mus musculus with 8 samples.

Results

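The insulin-like growth factor (IGF) genes described here are *Igf1*, the ligand, and *Igfbp2* to *Igfbp7*, the genes of 6 secreted proteins that bind IGFs. They were chosen by name as the rows of the count table with these gene symbols, which gave 7 of 55421 genes. RNA-seq was carried out on spermatogonial stem cells (SSCs) in culture, germ cells that maintain sperm production. It covered 4 conditions with 2 libraries each, which the study's reporting summary calls independent biological replicates. All cultures were derived from testes of 6-day-old C57BL/6XDBA/2 F1 pups and were grown in one SSC medium with N2 supplement, bFGF and GDNF on irradiated mouse embryonic fibroblasts (MEFs), so that every library can hold RNA of feeder and testicular somatic cells. Vehicle-treated cells (Veh) stayed in complete medium. RA cells received 100 nM retinoic acid in complete medium. Nutrient-restricted cells (NR) were kept in 10% complete medium and 90% Earle's balanced salt solution (EBSS), and NRRA cells were given 100 nM retinoic acid in that restricted medium. Treatment lasted 2 days. The comparisons ask how each treatment alone and both together relate to the transcripts of this growth factor system.

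IGF1 signals through the receptor tyrosine kinase IGF1R to promote growth and survival, and its production and binding proteins are classically tied to feeding state. IGF binding proteins hold IGFs in complexes that can limit or prolong their access to the receptor, and proteases such as pappalysins release the ligand by cutting the binding protein. In the testis, IGF1 is made mainly by somatic cells and acts on germ and somatic cells alike. The N2 supplement contains insulin, a related hormone that was diluted together with the rest of the medium in NR and NRRA.

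The libraries held between 19261333 and 30023585 assigned reads. Levels are given as CPM, the reads of a gene divided by the TMM-scaled total of its library and brought to a common sum. Differences are log2 fold changes with their standard errors (SE), 95% intervals and Benjamini-Hochberg adjusted p-values from edgeR's quasi-likelihood F test on all 8 libraries. A gene rose or fell where the adjusted p was under 0.05, and it was called where the fold was also at least 2. All 7 genes passed the filter on low counts, as did 20477 genes in all.

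*Igf1* was low in both conditions with complete medium and higher in both conditions with restricted medium. Its level was 2.63 and 2.61 CPM in the Veh libraries and 2.14 and 3.43 CPM in the RA libraries. Under restriction it was 17.4 and 16.0 CPM in NR and 20.1 and 20.2 CPM in NRRA. The Veh values lie within the range of the RA values, and all 4 libraries of restricted medium lie above all 4 of complete medium. In reads, the gene had 53 and 50 counts in Veh and 361 and 421 in NR. *Igf1* rose 6.35-fold in NR vs Veh (log2 2.67, adjusted p = 3.75e-14, SE 0.15) and 7.69-fold in NRRA vs Veh (log2 2.94, adjusted p = 8.46e-16, SE 0.14). These comparisons share the Veh libraries. With RA present in both arms, NRRA vs RA, the difference was 2.80 (adjusted p = 6.93e-16, SE 0.13). For RA vs Veh it was 0.15 (adjusted p = 0.603, SE 0.21), with an interval from -0.28 to 0.57, and its sign turned without RA replicate 2 (-0.29). NRRA exceeded NR by 0.28 (adjusted p = 0.0193, SE 0.09), a rise that was lost without NR replicate 2 (0.20) or without either NRRA replicate (0.27 and 0.28). The interaction was 0.13 (adjusted p = 0.784, SE 0.23, interval -0.34 to 0.60).

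*Igf1* lies on chromosome 10 (GRCm38, 87858265 to 87937042, plus strand), and none of its exons in GENCODE M21 overlaps an exon of another gene. In the 250 bases before its RefSeq start (GRCm38.p6) 1 retinoid receptor half-site, AGGTCA, was found on either strand, from 161 to 156 bases upstream, within bases that are exonic in another *Igf1* transcript. The site is shown since retinoic acid was a treatment, with the match in capitals (chr10:87860938-87860967, plus strand).

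Igf1 site: ctcagggaagagAGGTCAgctgcctagagc

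This short motif was present in 14.0% of 32851 RefSeq windows of the same length. A direct repeat of these letters with 5 bases between them, a form bound by retinoic acid receptors, was not found upstream of any of the 7 genes and was present in 0.009% of all windows.

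**Figure D1:**
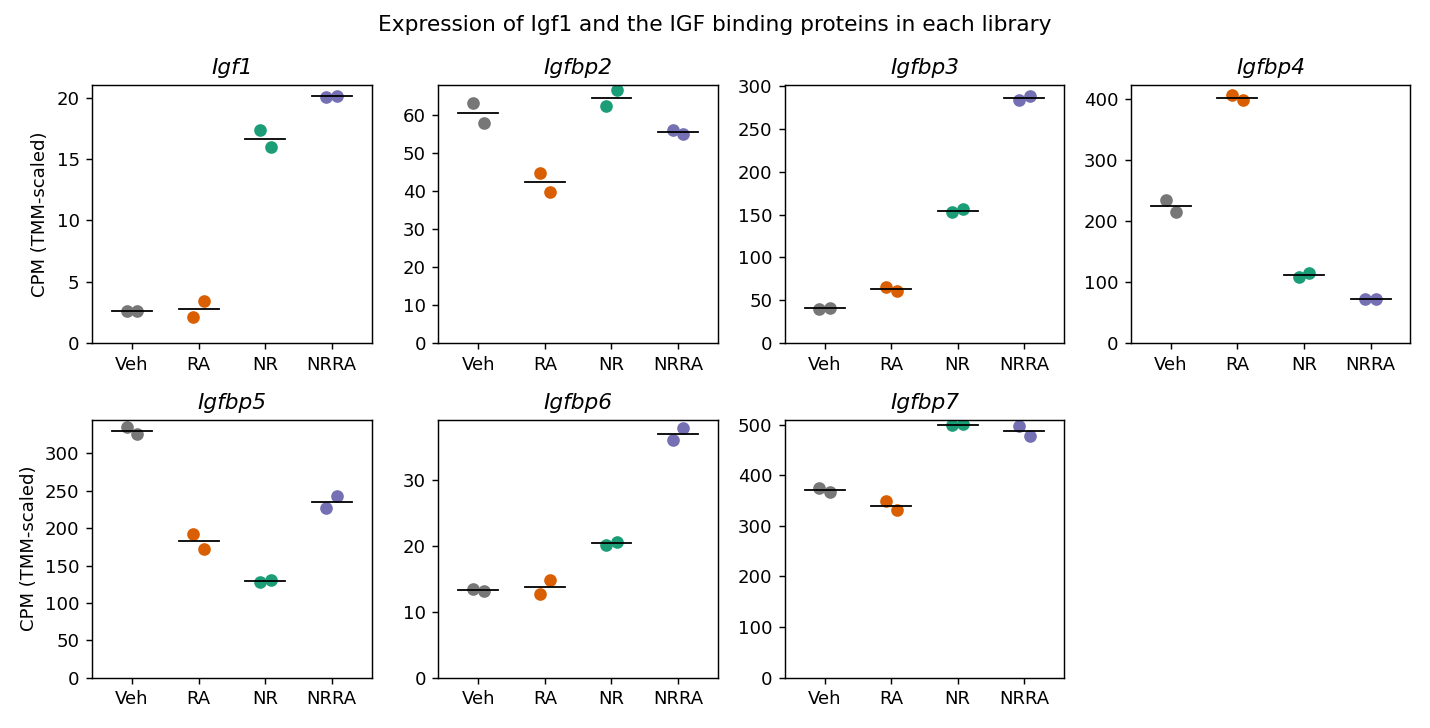
Levels of *Igf1* and *Igfbp2* to *Igfbp7* in each library, in CPM (y axis, linear, from 0; each panel has its own scale), for Veh, RA, NR and NRRA (x axis). Points are the 2 libraries of a condition and black lines their mean. *Igf1* and *Igfbp3* are highest in NRRA, *Igfbp4* is highest in RA (407 and 398 CPM) and *Igfbp5* is highest in Veh.

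*Igfbp3*, the main carrier of IGFs in blood, was higher in each treated condition than in Veh and highest in NRRA. Its level was 39.9 and 41.3 CPM in Veh and 65.7 and 60.1 CPM in RA. It reached 153 and 156 CPM in NR and 283 and 289 CPM in NRRA. The conditions did not overlap. The rise was 1.55-fold in RA (log2 0.63, adjusted p = 1.88e-09, SE 0.06), 3.81-fold in NR (log2 1.93, adjusted p = 2.31e-20, SE 0.05) and 7.06-fold in NRRA vs Veh (log2 2.82, adjusted p = 3.09e-24, SE 0.05). RA added to restriction raised it by a further 0.89 (adjusted p = 1.26e-14, SE 0.05, NRRA vs NR). The RA response was larger in restricted than in complete medium by 0.26 (adjusted p = 0.0187, SE 0.07), a difference that was not past the threshold with DESeq2 (0.24) or without RA replicate 2 (0.19), either NR replicate (0.21 and 0.24) or either NRRA replicate (0.28 and 0.25).

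*Igfbp4*, a binding protein that mostly limits IGF action and is released from its ligand by the protease PAPPA, moved in opposite directions with retinoic acid in the 2 media. Its level was 234 and 215 CPM in Veh and 407 and 398 CPM in RA. In restricted medium it was 108 and 114 CPM without RA and 71.7 and 72.2 CPM with RA. The 4 conditions did not overlap, with RA the highest and NRRA the lowest. *Igfbp4* rose 1.79-fold in RA vs Veh (log2 0.84, adjusted p = 5.53e-14, SE 0.05). It fell in NRRA vs NR by 0.63 on the log2 scale (adjusted p = 8.35e-11, SE 0.05). The difference between these responses, the interaction of RA and restriction, was -1.47 (adjusted p = 2.63e-14, SE 0.07). In NR vs Veh the log2 change was -1.01 (adjusted p = 1.64e-15, SE 0.05), just past the 2-fold limit. It stayed past the p threshold but came within 2-fold without Veh replicate 1 (-0.93), without NR replicate 1 (-0.95), with upper quartile scaling (-0.998) and with the GC and length trend removed (-0.96). NRRA vs RA gave the largest difference of the gene, a fall of 5.59-fold (log2 -2.48, adjusted p = 9.4e-24, SE 0.05).

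*Igfbp3* and *Igfbp4* both lie on chromosome 11, *Igfbp3* from 7206086 to 7213923 on the minus strand and *Igfbp4* from 99041244 to 99054392 on the plus strand of GRCm38. Their promoters are shown as the pair of binding protein genes that moved furthest apart between RA and NRRA. Each run is the 250 bases before the RefSeq start (GRCm38.p6), 5′ to 3′ on the strand of the gene, with capitals for the single match to any of the motifs searched, a TATA box (TATAAA, either strand). The windows are chr11:7213924-7214173 on the minus strand for *Igfbp3* and chr11:99040994-99041243 on the plus strand for *Igfbp4*.

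Igfbp3: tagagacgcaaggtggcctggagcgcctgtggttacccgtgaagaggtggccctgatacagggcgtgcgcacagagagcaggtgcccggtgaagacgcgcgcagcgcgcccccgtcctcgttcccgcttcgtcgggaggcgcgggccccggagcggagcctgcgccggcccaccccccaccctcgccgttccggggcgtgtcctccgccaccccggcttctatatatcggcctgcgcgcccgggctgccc

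Igfbp4: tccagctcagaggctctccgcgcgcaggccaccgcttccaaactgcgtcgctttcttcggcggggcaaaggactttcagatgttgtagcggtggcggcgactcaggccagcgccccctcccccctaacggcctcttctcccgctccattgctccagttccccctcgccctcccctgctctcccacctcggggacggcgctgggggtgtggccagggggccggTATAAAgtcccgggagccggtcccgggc

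The *Igfbp4* window holds the TATA box from 28 to 23 bases before the start, a motif present in 12.4% of all windows, and has a GC content of 69.2% with 22 CpG dinucleotides. The *Igfbp3* window has a GC content of 73.2% with 32 CpG dinucleotides and none of the motifs searched. The others were the half-site and direct repeat given above, the ATF4 element TGATGNAA (in 3.45% of all windows), the FoxO site GTAAACA (3.17%), the STAT site TTCNNNGAA (7.02%) and the E-box CACGTG (6.02%), each on both strands. Neither window overlaps an annotated exon of its gene.

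*Igfbp5*, a binding protein that also attaches to extracellular matrix, was the other gene whose RA response had opposite signs in the 2 media. Its level was 335 and 326 CPM in Veh and 193 and 172 CPM in RA. It was 128 and 131 CPM in NR and 227 and 243 CPM in NRRA. The conditions did not overlap, and Veh was the highest and NR the lowest. *Igfbp5* fell by 0.86 in RA vs Veh (adjusted p = 1.78e-13, SE 0.05) and rose by 0.86 in NRRA vs NR (adjusted p = 1.51e-13, SE 0.05), both on the log2 scale. The interaction was 1.72 (adjusted p = 3.73e-15, SE 0.07). It fell 2.56-fold in NR vs Veh (log2 -1.35, adjusted p = 9.56e-18, SE 0.05), while in NRRA vs Veh the fall was 1.41-fold (log2 -0.49, adjusted p = 2.03e-09, SE 0.05). *Igfbp5* lies next to *Igfbp2* on chromosome 1, on the opposite strand.

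**Figure D2:**
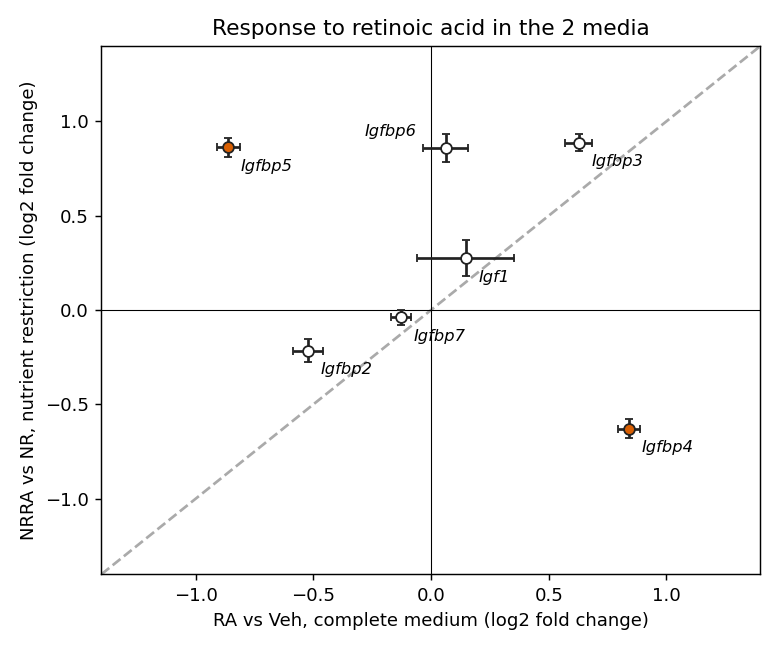
Response to retinoic acid in complete medium (x axis, RA vs Veh) against that in restricted medium (y axis, NRRA vs NR), as log2 fold changes with SE bars, for the 7 genes. Orange points are genes called for the interaction, and the dashed line marks equal responses. *Igfbp4* (0.84 and -0.63) and *Igfbp5* (-0.86 and 0.86) lie in opposite corners.

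*Igfbp6*, which prefers IGF2 over IGF1, rose with restriction, and rose further where RA was added to restricted medium. Its level was 13.4 and 13.2 CPM in Veh and 12.7 and 14.8 CPM in RA, and the Veh values lie within the RA range. It was 20.1 and 20.6 CPM in NR and 35.9 and 37.8 CPM in NRRA, both above all libraries of complete medium. The change was 0.61 in NR vs Veh (adjusted p = 3.28e-06, SE 0.09), 1.47 in NRRA vs Veh (adjusted p = 1.95e-14, SE 0.08) and 0.86 in NRRA vs NR (adjusted p = 2.8e-10, SE 0.07). For RA vs Veh it was 0.06 (adjusted p = 0.637, SE 0.10), with an interval from -0.13 to 0.26 and a sign that turned without RA replicate 2 (-0.06). The interaction was 0.80 (adjusted p = 3.4e-05, SE 0.12).

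*Igfbp2*, a binding protein abundant in fetal tissues, was lowest in RA. Its level was 63.1 and 57.8 CPM in Veh and 44.9 and 39.8 CPM in RA. It was 62.4 and 66.6 CPM in NR and 56.1 and 55.1 CPM in NRRA. The RA libraries lie below the other 6, and those of Veh and NR overlap. *Igfbp2* fell by 0.52 on the log2 scale in RA vs Veh (adjusted p = 3.58e-07, SE 0.07). The change was 0.09 in NR vs Veh (adjusted p = 0.237, SE 0.06, interval -0.03 to 0.22) and -0.12 in NRRA vs Veh (adjusted p = 0.0975, SE 0.06, interval -0.25 to 0.01). It fell by 0.22 in NRRA vs NR (adjusted p = 0.00508, SE 0.06), a fall lost without NR replicate 2 (-0.18) or NRRA replicate 2 (-0.20). The interaction of 0.31 (adjusted p = 0.0222, SE 0.09) was not past the threshold with DESeq2 (0.29) or in 6 of the 8 fits that left out 1 library.

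*Igfbp7*, a vascular matrix protein related to this family that binds IGFs weakly, was the member with the highest level per length of transcript and was called in no comparison. Its level was 376 and 366 CPM in Veh and 349 and 331 CPM in RA. It was 499 and 501 CPM in NR and 497 and 477 CPM in NRRA. All 4 libraries of restricted medium lie above the others. *Igfbp7* rose by 0.43 in NR vs Veh (adjusted p = 1.64e-09, SE 0.04) and by 0.39 in NRRA vs Veh (adjusted p = 4.05e-09, SE 0.04). It fell by 0.13 in RA vs Veh (adjusted p = 0.013, SE 0.04), which did not pass in several alternatives, among them the fits without Veh replicate 1 (-0.09), RA replicate 2 (-0.09) and either NR replicate (-0.11 in both), and it turned sign with the GC and length trend removed (0.0048). NRRA vs NR gave -0.04 (adjusted p = 0.481, SE 0.04, interval -0.12 to 0.04). The interaction was 0.09 (adjusted p = 0.344, SE 0.06, interval -0.03 to 0.21). Of its exon bases 7.03% overlap *Polr2b* on the opposite strand. Exons of the other 6 genes overlap no other gene.

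Counted over the 7 genes, 0 were called in RA vs Veh, where 7.49% of all tested genes were called, and 5 passed the adjusted p threshold (2 higher, 3 lower), as 43.2% of all genes did. In NR vs Veh 4 were called (*Igf1* and *Igfbp3* higher, *Igfbp4* and *Igfbp5* lower) against 8.29% of all genes, and 6 passed the p threshold, as 43.9% of all genes did. In NRRA vs Veh 4 were called (*Igf1*, *Igfbp3* and *Igfbp6* higher, *Igfbp4* lower) against 15.9% of all genes, and 6 passed the p threshold against 58.9%. NRRA vs RA gave 4 called genes, those of NRRA vs Veh and in the same directions (both comparisons share the NRRA libraries), against 8.29%, and all 7 passed the p threshold against 40.3%. NRRA vs NR gave 0 called genes against 8.7%, although 6 passed the adjusted p threshold, as 43.4% of all genes did. The interaction gave 2, *Igfbp4* and *Igfbp5*, against 2.24%, and 5 passed the p threshold against 13%. The other members differed in NRRA vs RA by 0.52 (*Igfbp7*), 0.40 (*Igfbp2*) and 0.37 (*Igfbp5*), and *Igfbp3* and *Igfbp6* by 2.19 and 1.41. Each comparison of restricted with complete medium listed here thus gave 4 called genes, with *Igf1*, *Igfbp3* and *Igfbp4* among them every time. The remaining call was *Igfbp5* for restriction alone and *Igfbp6* where the restricted medium held RA. For RA within a medium no gene reached the 2-fold limit, although 5 passed the p threshold in complete and 6 in restricted medium. Over the 7 genes the log2 fold changes had a median of 0.06 for RA, 0.43 for NR and 0.39 for NRRA vs Veh, beside -0.02, 0.01 and 0.03 over all tested genes.

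**Figure D3:**
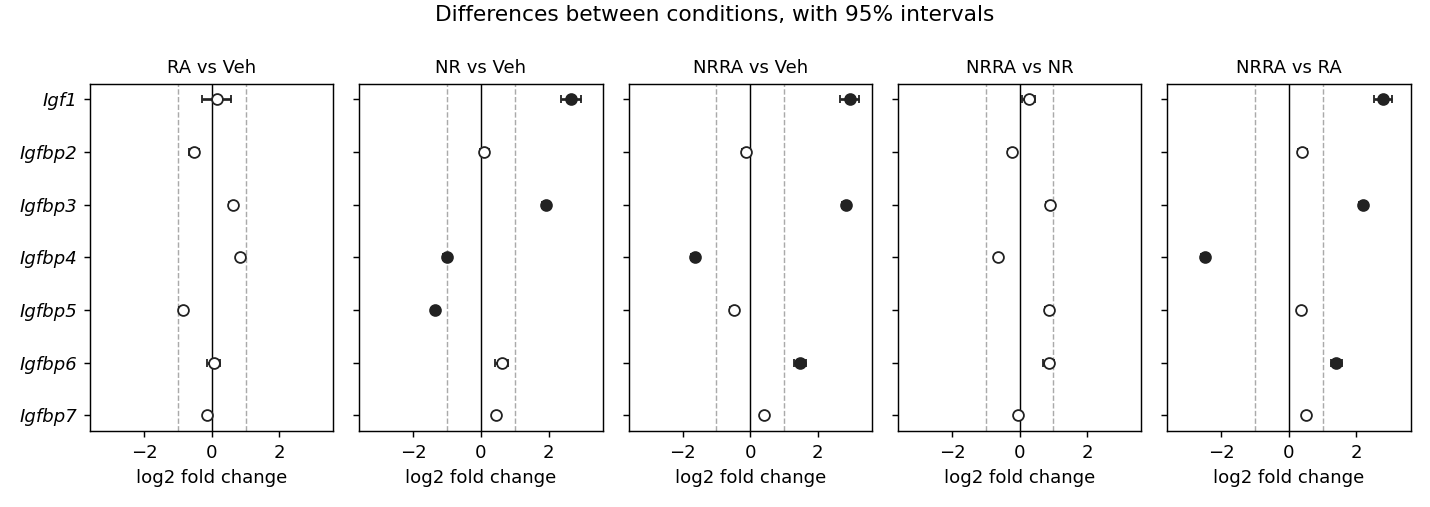
Log2 fold changes (x axis) of the 7 genes (y axis) in 5 comparisons, with bars for 95% intervals and dashed lines at the 2-fold limits. Filled points are called and open points are not. In RA vs Veh and in NRRA vs NR all points lie inside the limits, while *Igf1* lies at 2.67 and 2.94 for NR and NRRA against Veh and at 2.80 for NRRA against RA.

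Levels of different genes were compared as CPM per kb of exon. On this scale *Igfbp7* was the highest member in every condition, at 307 ± 5.32 in Veh, 281 ± 10.6 in RA, 413 ± 1.45 in NR and 403 ± 12.02 CPM per kb in NRRA (SD, n = 2). *Igf1* was the lowest in every condition, at 0.264 ± 0.0014 CPM per kb in Veh and 2.03 ± 0.00318 in NRRA. The order between them changed. In Veh it was *Igfbp5*, *Igfbp4*, *Igfbp2*, *Igfbp3* and *Igfbp6*, from 55.0 to 11.96 CPM per kb. In RA *Igfbp4* led these 5 genes with 91.2 CPM per kb, followed by *Igfbp5*, *Igfbp2*, *Igfbp3* and *Igfbp6*. In NR *Igfbp3* led with 49.4 CPM per kb, followed by *Igfbp2*, *Igfbp4*, *Igfbp5* and *Igfbp6*. In NRRA *Igfbp3* led with 91.4 CPM per kb, followed by *Igfbp5*, *Igfbp6*, *Igfbp2* and *Igfbp4*, which had dropped to 16.3 CPM per kb. Neighbours in these orders differed by more than the sum of their SDs, except *Igfbp2* (22.9) and *Igfbp3* (20.1 CPM per kb) in RA.

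Summed over the 6 binding proteins, transcript levels were 470 ± 11.2 CPM per kb in Veh and 458 ± 16.3 in RA, against 563 ± 5.52 for NR and 613 ± 8.10 for NRRA (SD, n = 2). Most of each sum was *Igfbp7*, which alone went from 307 in Veh to 413 CPM per kb in NR. That rise was larger than the rise of the sum, so the other binding protein genes together did not rise in NR. The shares of single genes within this sum differed between conditions. *Igfbp4* made up 10.8% of it in Veh, 19.9% in RA, and, under restriction, 4.47% in NR and 2.66% in NRRA. *Igfbp3* made up 2.76% in Veh and 4.39% in RA, against 8.78% in NR and 14.9% in NRRA. *Igfbp4* was thus the larger of the pair in complete medium and *Igfbp3* in restricted medium, with or without RA. *Igfbp5* took 11.7% in Veh and between 3.82% and 6.62% in the treated conditions, and *Igfbp7* took between 61.4% and 73.5% throughout.

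**Figure D4:**
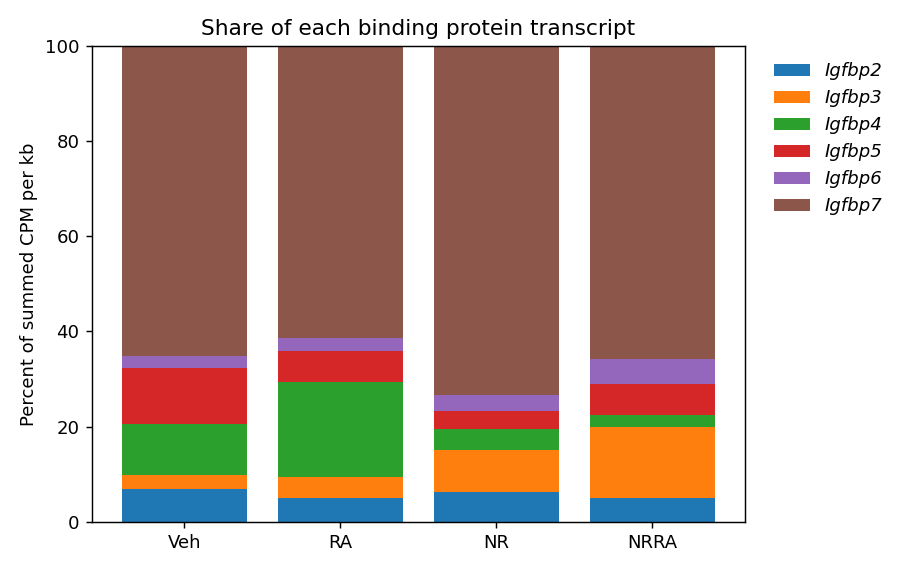
Share of each binding protein gene (stacked colours) in the summed CPM per kb of *Igfbp2* to *Igfbp7* (y axis, percent) in Veh, RA, NR and NRRA (x axis), as means of 2 libraries. *Igfbp4* shrinks from 10.8% in Veh to 2.66% in NRRA while *Igfbp3* grows from 2.76% to 14.9%.

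Other genes of the IGF axis were taken from a list of 37 genes, of which 33 were tested. Of these 33, 22 passed the adjusted p threshold in RA vs Veh (9 higher, 13 lower), 21 in NR vs Veh (17 higher, 4 lower) and 24 in NRRA vs Veh (16 higher, 8 lower), where 43.2%, 43.9% and 58.9% of all tested genes passed it. With the 2-fold limit 4, 9 and 14 of the 33 were called, beside 7.49%, 8.29% and 15.9% of all tested genes. The median log2 change of the 33 genes was -0.13, 0.29 and 0.36, beside -0.02, 0.01 and 0.03 over all tested genes.

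*Igf2*, the second ligand, and the receptors *Igf1r* and *Igf2r* stayed within 2-fold of Veh in every condition. *Igf2* was between 18.9 and 26.5 CPM in all libraries and changed by 0.35 in RA (adjusted p = 0.000819, SE 0.08) and 0.27 in NR vs Veh (adjusted p = 0.00727, SE 0.08). Its count is uncertain, since 62.8% of its exon bases are shared with *Gm49394* on the same strand. *Igf1r*, the signalling receptor, was 212 and 217 CPM in Veh and 157 in both RA libraries, and 296 and 300 CPM in NR and 221 and 219 CPM in NRRA. It fell by 0.45 in RA vs Veh (adjusted p = 2.77e-09, SE 0.04) and rose by 0.48 in NR vs Veh (adjusted p = 3.79e-10, SE 0.04), and in NRRA it differed from Veh by 0.04 (adjusted p = 0.471, SE 0.04). RA lowered *Igf1r* in restricted medium too, with -0.44 in NRRA vs NR, and the interaction was 0.01 (interval -0.11 to 0.13). *Igf2r*, the receptor that clears IGF2, fell by 0.25 in RA vs Veh (adjusted p = 3.41e-06, SE 0.04) and differed by -0.02 in NR and -0.08 in NRRA vs Veh (adjusted p = 0.753 and 0.0562). *Insrr*, an orphan relative of the insulin receptor with about 1 CPM, was called in NRRA vs Veh (1.01, adjusted p = 0.0191, SE 0.36), a call lost without Veh replicate 2 (0.87) or NRRA replicate 1 (0.94) and with DESeq2. *Igfbp1*, the binding protein of fasting liver, had 1 count in 1 RA library and 0 in the other 7 libraries, where 3 counts would be between 0.0963 and 0.156 CPM.

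Genes that release or protect the bound ligand were among those with the largest differences. *Pappa*, the protease that cuts IGFBP4, was 18.6 and 21.99 CPM in Veh and 19.3 and 18.1 CPM in RA, against 158 and 168 CPM in NR and 113 and 104 CPM in NRRA. *Stc1*, whose product stanniocalcin-1 inhibits PAPPA, went the other way, with 25.3 and 27.0 CPM in Veh, 46.2 and 43.5 CPM in RA, 2.70 and 2.05 CPM in NR and 2.50 and 1.77 CPM in NRRA. For neither gene do the libraries of the 2 media overlap. *Pappa* rose by 3.01 in NR (adjusted p = 3.66e-22, SE 0.07) and 2.42 in NRRA vs Veh (adjusted p = 2.64e-20, SE 0.07), and *Stc1* fell by 3.48 in NR (adjusted p = 1.09e-17, SE 0.13) and 3.62 in NRRA vs Veh (adjusted p = 9.68e-19, SE 0.13). RA vs Veh gave -0.13 for *Pappa* (adjusted p = 0.264, SE 0.09) and a rise of 0.78 for *Stc1* (adjusted p = 1.13e-08, SE 0.08). *Stc2*, the gene of a second stanniocalcin that inhibits PAPPA, did not follow *Stc1*. It rose by 0.84 in NR vs Veh (adjusted p = 0.00114, SE 0.20), from 2.43 and 1.93 CPM to 4.24 and 3.64 CPM, and was at 0.46 in NRRA (adjusted p = 0.0512) vs Veh. Its RA vs Veh value was 0.03 (adjusted p = 0.932).

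*Htra1* and *Pappa2* rose with retinoic acid, with or without restriction. *Htra1*, a secreted serine protease that cuts IGFBP5, was 31.7 and 30.5 CPM in Veh and 33.0 and 32.1 CPM in NR, against 103 and 100 CPM in RA and 152 and 151 CPM in NRRA. It rose by 1.71 in RA (adjusted p = 2.27e-18, SE 0.06) and 2.28 in NRRA vs Veh (adjusted p = 4.44e-22, SE 0.06), and was at 0.07 in NR vs Veh (adjusted p = 0.441, SE 0.06). *Pappa2*, a pappalysin that cuts IGFBP3 and IGFBP5, rose by 1.84 in RA (adjusted p = 8.68e-08, SE 0.21) and 1.45 in NRRA vs Veh (adjusted p = 2.39e-06, SE 0.22) from a level of 1.68 and 1.41 CPM in Veh. *Adam12*, a metalloprotease that cuts IGFBP3 and IGFBP5, rose by 1.10 in NR vs Veh (adjusted p = 4.94e-14, SE 0.06).

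Of the genes that carry growth hormone signals to *Igf1*, the receptor gene *Ghr* rose with restriction. It was 25.6 and 31.0 CPM in Veh, 95.1 and 98.0 CPM in NR and 106 and 108 CPM in NRRA, with 45.6 and 45.5 CPM in RA. The change was 0.69 in RA (adjusted p = 1.53e-08, SE 0.07), 1.77 in NR (adjusted p = 1.19e-17, SE 0.07) and 1.92 in NRRA vs Veh (adjusted p = 7.24e-19, SE 0.07). *Socs2*, a feedback inhibitor of that receptor, was called lower in NRRA (-1.03, adjusted p = 0.000148, SE 0.21), within 2-fold without NRRA replicate 2 (-0.72) or Veh replicate 2 (-0.94). Of the receptor adaptors, *Grb10*, an inhibitor of the IGF1 and insulin receptors, rose by 1.13 in NRRA vs Veh (adjusted p = 4.06e-18, SE 0.04) and by 0.48 in NR vs Veh (adjusted p = 5.5e-10, SE 0.04), and *Irs4*, at under 2 CPM in all libraries, rose by 1.17 in NRRA (adjusted p = 0.00149, SE 0.30). *Igf2bp1*, an RNA-binding protein of *Igf2* and other mRNAs, fell by 1.19 in NRRA (adjusted p = 1.36e-18, SE 0.04).

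The CCN genes encode matrix proteins that share the IGF-binding domain. They were listed in a group of 8 genes together with *Esm1* and *Kazald1*, 2 other genes of IGFBP-related proteins. In NR vs Veh 6 of the 8 genes of this group rose and 0 fell, and 5 were called, where 43.9% of all tested genes passed the p threshold and 8.29% were called. In RA vs Veh 3 of the 8 rose and 3 fell, with 1 called in each direction (*Esm1* higher, *Ccn5* lower). Of all tested genes 43.2% passed and 7.49% were called in that comparison. In NRRA vs Veh 5 rose and 1 fell, with 4 called higher, where 58.9% of all tested genes passed and 15.9% were called. *Ccn5* rose by 3.30 in NR (adjusted p = 5.72e-24, SE 0.06) and 2.18 in NRRA (adjusted p = 3.47e-20, SE 0.06) and fell by 1.41 in RA (adjusted p = 5.42e-12, SE 0.10) vs Veh. *Ccn3* rose by 2.22 and 2.90, *Ccn4* by 1.81 and 0.96 and *Ccn2* by 1.11 and 1.17 in NR and NRRA vs Veh, *Ccn4* staying just within 2-fold in NRRA. Of the exon bases of *Ccn2* 23.2% overlap *Gm15270* on the opposite strand. *Esm1*, an endothelial proteoglycan of the same group, rose by 3.23 in RA vs Veh (adjusted p = 1.47e-08, SE 0.34), from 0.45 and 0.26 CPM to 3.21 and 3.50 CPM. *Kazald1* (1.01 in NR) and *Ccn6* (1.35 in NRRA) were called at under 2 CPM, with adjusted p = 0.0092 and 0.0431. The call of *Kazald1* was lost without Veh replicate 2 (0.86) or NR replicate 2 (0.94), and that of *Ccn6* on leaving out any of 5 libraries (both Veh, RA replicate 1 and both NRRA).

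**Figure D5:**
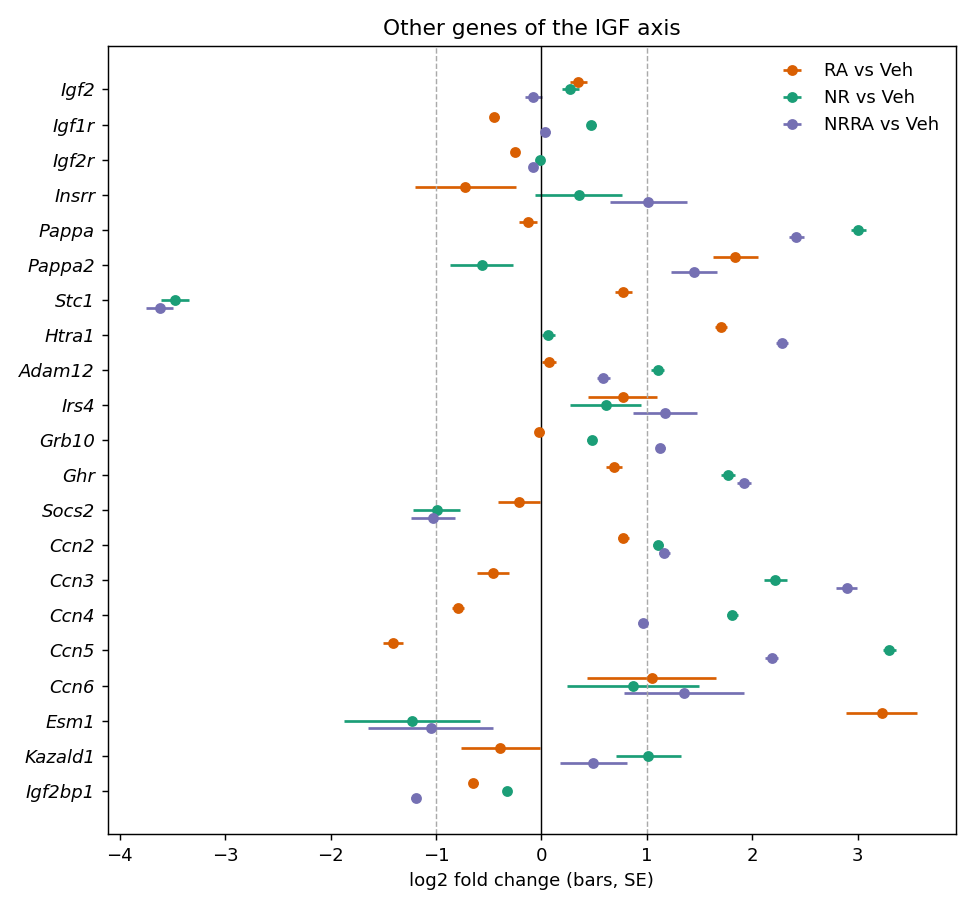
Log2 fold changes against Veh (x axis, bars are SE) of *Igf2*, *Igf1r*, *Igf2r* and the other axis genes called in at least 1 comparison (y axis), with RA in orange, NR in green and NRRA in purple, and dashed lines at the 2-fold limits. *Pappa* (3.01 and 2.42) and *Stc1* (-3.48 and -3.62) lie far apart in NR and NRRA, and *Htra1* (1.71 and 2.28) moves in RA and NRRA.

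Markers of other cell types moved with the same comparisons. Summed over 15 fibroblast markers, none of them at 0, levels were between 22682 and 22771 CPM for Veh, 17823 and 19154 for RA, 34831 and 36367 for NR and 27533 and 28349 for NRRA. In NR vs Veh 11 of the 15 rose, among them *Col1a1* by 1.07 and *Postn* by 1.68, and 3 fell, with a median of 0.63. Those that fell were *Twist2* by 1.48, *Vim* by 0.89 and *S100a4* by 0.87. *S100a4*, a marker the study used for feeder cells, was at 3.22 and 3.07 CPM in Veh and fell in RA (-0.67) and NRRA (-2.32) vs Veh as well. In NRRA vs Veh 8 rose and 7 fell, with a median of 0.35. For these and the marker counts that follow, 43.9% of all tested genes passed the p threshold in NR and 58.9% in NRRA vs Veh. The 5 markers of peritubular myoid and smooth muscle cells summed to 167 to 173 CPM in Veh, 136 to 141 in RA, 673 to 688 in NR and 1085 to 1095 in NRRA, of which *Acta2* alone had 506 and 512 CPM in NR and 879 and 878 CPM in NRRA. In NR vs Veh 4 of these 5 rose, *Acta2* by 2.67, and *Des* fell by 0.79, and in NRRA vs Veh 4 rose, *Acta2* by 3.46, and *Des* was at -0.11 (adjusted p = 0.495). Fewer cells of a type and less RNA per cell cannot be told apart in bulk libraries, and the part of fibroblast and smooth muscle RNA in the results above was not tested. The 7 markers of undifferentiated spermatogonia all had reads, though *Nanos2* had a mean of only 2 counts in RA and in NRRA. Their sums were 805 to 870 CPM in Veh and 731 to 745 in NR, and 322 to 327 CPM in RA and 153 to 154 in NRRA. In NR vs Veh 2 of them rose and 3 fell, and in NRRA vs Veh 0 rose and 6 fell. Macrophages, another source of IGF1 in tissues, had summed markers between 203 and 288 CPM in all libraries, of which *Lyz2* had between 114 and 157 CPM. Of these 5 markers 2 rose and 0 fell in NR vs Veh, with a median of 0.0995, where 43.9% of all tested genes passed. In NRRA vs Veh 2 rose and 1 fell, with a median of 0.0491, where 58.9% passed. In Veh, NR and NRRA the means were 57.5, 76.3 and 70.1 CPM for *Adgre1*. They were 24.2, 25.7 and 23.1 CPM for *Csf1r* and 22.8, 19.7 and 19.1 CPM for *Cd68*. *Ptprc*, a marker of all leukocytes, was at 2.87 and 4.53 CPM in Veh and 4.49 and 4.13 in RA, against 10.1 and 8.88 CPM in NR and 7.58 and 7.03 in NRRA. It rose by 1.36 in NR (adjusted p = 9.45e-08, SE 0.16) and by 0.98 in NRRA vs Veh (adjusted p = 9.12e-06, SE 0.16), in the same comparisons as *Igf1*, and the part of leukocyte RNA in the *Igf1* result was not tested. The sums of the remaining lists were 826 to 1086 CPM for germ cells, 13.5 to 46.4 for Sertoli, 5.81 to 15.2 for Leydig and 8.93 to 18.3 CPM for endothelial cells.

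Per 1000 reads of the fibroblast markers, *Igf1* had 0.116 and 0.114 reads in Veh and 0.112 and 0.193 reads in RA. It had 0.499 and 0.440 such reads in NR and 0.710 and 0.732 in NRRA. Scaled in this way, *Igf1* differed by 2.02 in NR and 2.65 in NRRA vs Veh, *Igfbp3* by 1.28 and 2.52, *Igfbp4* by -1.66 and -1.94 and *Igfbp5* by -2.002 and -0.79. *Igfbp6* was then at -0.04 in NR vs Veh, and *Igfbp7* at -0.22, below Veh in place of above it. The interactions of *Igfbp4* (-1.42) and *Igfbp5* (1.78) were close to those with TMM scaling (-1.47 and 1.72). Of the other axis genes *Pappa*, *Stc1* and *Ghr* stayed called in NR vs Veh, *Igf1r* (-0.17) and *Igf2* (-0.38) turned sign there, and *Igf2r* turned sign in RA vs Veh (0.05). *Igfbp2* (-0.20) and *Igfbp5* (-0.23) turned sign in NRRA vs RA. This scaling, chosen after the sums were seen, moves the median of all genes by -0.64 in NR and -0.27 in NRRA vs Veh. Of the mean sum of 22726 CPM in Veh, *Fn1* had 9126, *Col1a1* 3742 and *Col1a2* 2141 CPM. *Col1a1* itself was at 7869 CPM in NR, so the scaling does not measure how many fibroblasts a culture held.

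For the 5 members called in at least 1 comparison, the genes with the most similar profiles were sought among the 14805 tested genes that had 50 counts or more on average, as Pearson's r of log2 CPM over the 8 libraries. These libraries form 4 conditions, so r mostly describes 4 levels and many genes share a high value. *Igf1* was followed most closely by *Ddx60* (r = 0.995), *Ifi205* (0.995) and *H2-T24* (0.994). *Ddx60* encodes an interferon-induced helicase. *Igfbp3* was followed by *Synpo2* (0.999), *Efemp1* (0.998) and *Atxn7l1* (0.996). *Synpo2* encodes an actin-binding protein of muscle and *Efemp1* a matrix glycoprotein. *Igfbp4* was nearest to *Gm45774* (0.995), *Tnfrsf25* (0.995) and *Cdh6* (0.994), a cadherin gene. *Igfbp5* had the loosest matches, *Tln1* (0.979), *Rrm1* (0.972) and *Ampd3* (0.964), and *Igfbp6* was nearest to *Limch1* (0.997), *Slc44a1* (0.993) and *Ttc28* (0.993).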

How the data were processed

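RNA-seq of cultured SSCs was analysed in 4 conditions with 2 libraries each. Per the submitters' processing notes, the authors used STAR 2.6.1c and featureCounts 1.6.4 on mm10. They deposited a table of counts, whole numbers of reads per gene and library without normalization. The strand setting and annotation used for counting are not given in the sources used here, so genes with overlapping exons are uncertain. Conditions and replicate numbers came from the sample labels.

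Counts were filtered with filterByExpr, scaled with TMM and fitted in edgeR 4.0.16 (R 4.3.3) with 1 coefficient per condition over all 8 libraries. Quasi-likelihood F tests were adjusted by the Benjamini-Hochberg method over 20477 genes. A call needed both an adjusted p under 0.05 and a change of at least 2-fold. For likeness, log2 CPM had a prior count of 2. The SE is the absolute log2 fold change divided by the square root of F. The scripts were tested on simulated data.

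All 7 members were named in every comparison. Of the axis list, *Igf2*, *Igf1r*, *Igf2r*, *Igfbp1* and genes called against Veh were named, and for each called member the 3 genes most like it. *Stc2* and a few marker genes were named after their values were seen. The members and lists were chosen with earlier results of these data known. Positions and exons came from GENCODE M21 (55154 of 55421 identifiers found), and promoters and motif windows from RefSeq (GRCm38.p6). All 7 members matched a RefSeq entry. Alternatives were DESeq2 1.42.0, RLE and upper quartile scaling, no filter, no fold limit, only the groups compared, leaving out each library, a replicate block, removal of the trend with GC content and length, and, added after the data were seen, scaling to fibroblast markers. The p-values rest on the spread between the 2 libraries of a condition. The fit estimates this spread over all 8 libraries and draws on other genes for it, so it is neither each gene's own nor each condition's own. The coefficient of variation between replicates estimated by edgeR was 3.35%. How far further cultures would differ was not tested.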

Additional observations from a re-analysis of the deposited data

Results flagged for a closer look

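For 5 of the 7 genes the response to retinoic acid differed between restricted and complete medium by the interaction test of edgeR (adjusted p under 0.05, passed by 13% of all genes). The difference, NRRA vs NR minus RA vs Veh on the log2 scale, was 1.72 for *Igfbp5* and -1.47 for *Igfbp4*, where the responses had opposite signs. It was 0.80 for *Igfbp6*, whose response passed the test in restricted medium alone. It was 0.31 for *Igfbp2* and 0.26 for *Igfbp3*, where both responses had the same sign, and these differences were past the threshold in neither gene with DESeq2. Outlying libraries were not tested for, since each condition has 2 libraries.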

How the results depend on the processing

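Of 665 values of single members under alternatives, 617 kept their direction and their side of the threshold, 27 were no longer past it, 5 came past it and 16 changed sign. Counts of called members moved without the fold limit, to 5 in RA vs Veh, 6 in NRRA vs NR, 7 in NRRA vs RA and 5 in the interaction, and counts of axis genes to 22, 21 and 24 in RA, NR and NRRA vs Veh. Scaling to fibroblast markers gave 1 called member in RA vs Veh, *Igfbp4*, and 3 in NRRA vs NR, and 8 and 9 axis genes in RA and NRRA vs Veh. It changed the sign of *Igfbp7* in RA (0.17) and NR (-0.22) vs Veh, NRRA vs NR (0.31) and NRRA vs RA (-0.0772), of *Igfbp2* in NR vs Veh (-0.55), NRRA vs NR (0.14) and NRRA vs RA (-0.20), of *Igfbp5* in NRRA vs RA (-0.23) and of *Igfbp6* in NR vs Veh (-0.0362). Removing the trend with GC content and length changed the sign of *Igf1* (-0.24) and *Igfbp7* (0.0048) in RA vs Veh, *Igfbp7* in NRRA vs NR (0.0118) and *Igfbp2* in NRRA vs Veh (0.0444). Leaving out 1 library gave values from -0.29 (without RA replicate 2) to 0.39 for *Igf1* and from -0.0628 (without RA replicate 2) to 0.15 for *Igfbp6* in RA vs Veh, and from -0.11 (without RA replicate 1) to 0.57 for the interaction of *Igf1*. The causes were not tested.

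Leaving out 1 library gave 3 to 4 called members in NR vs Veh and no other count of members. Axis counts ranged from 8 to 11 in NR and 12 to 14 in NRRA vs Veh and stayed at 4 in RA vs Veh. Same-numbered libraries did not deviate together (r between -0.072 and 0.078). The libraries of a condition differed little, so this cannot exclude that the numbers pair the samples. The fit with the replicate block gave 0, 4 and 4 called members in RA, NR and NRRA vs Veh, as without it, and 4, 9 and 14 axis genes. *Igf1* had about 50 reads in each Veh library, which limits its RA comparison, and genes near 1 CPM have wide errors.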
